A study of Mus musculus with 6 samples.

Results

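The expression of 10 genes that glucocorticoids classically induce was followed in cultured cardiomyocytes of newborn mice: Fkbp5, Tsc22d3, Sgk1, Zbtb16, Ptgds, Cebpb, Cebpd, Nfkbia, Glul and Lcn2. They were chosen by name, with earlier results of these data known. They were found by Ensembl identifier, and all 10 were present among the 52550 genes counted and among the 14386 genes with enough counts to be tested. The study had 2 groups of 3 libraries, control and GR-cKO, where the glucocorticoid receptor gene Nr3c1 had been deleted in cardiomyocytes. In both groups the hearts were taken on postnatal day 1, the cardiomyocytes were enriched by magnetic sorting, and the cells were kept for 48 hours in serum and then for 24 hours without it. All 6 libraries carry the same treatment label, and the labels name no added glucocorticoid. The sources used here do not give the strain, the control alleles or the promoter that drives the deletion. The labels number the libraries as biological replicates without tying them to separate animals or cultures, so the p-values cover the spread among these 6 libraries, part of which may be technical.

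Glucocorticoids such as corticosterone enter the cell and bind the glucocorticoid receptor, which is held in the cytoplasm by HSP90 and its co-chaperones. The receptor then moves to the nucleus and binds palindromic DNA elements near its target genes. Several of the targets studied here feed back on the hormone response: FKBP5 lowers the affinity of the receptor for hormone, and GILZ, the product of Tsc22d3, and IκBα, the product of Nfkbia, restrain inflammatory transcription. Most of these genes also answer to other inputs, among them cytokines, cell stress and NF-κB. In the heart, glucocorticoids are known for driving late fetal and perinatal maturation.

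Of the 10 genes, 4 were higher in GR-cKO, none was lower and 6 did not pass the test (edgeR quasi-likelihood test, Benjamini-Hochberg adjusted p below 0.05 over all genes tested). The 4 that rose were Lcn2, 2.82-fold, Ptgds, 1.98-fold, Sgk1, 1.29-fold, and Glul, 1.26-fold. Over all genes tested 7.63% were called higher in GR-cKO and 7.19% lower. Tsc22d3, Cebpb and Cebpd lay above control in every GR-cKO library but missed the threshold, and Fkbp5, Nfkbia and Zbtb16 overlapped between the groups. The 3 GR-cKO libraries lay above the 3 controls for 7 of the 10 genes and below them for none, while 29.9% of all tested genes did not overlap, 15.2% lying wholly above and 14.7% wholly below. The median log2 fold change was 0.27 for the 10 genes and -0.01 for all genes tested. Levels are 3' end tag counts scaled to library size (CPM) with TMM factors, and fold changes are GR-cKO over control.

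**Figure D1:**
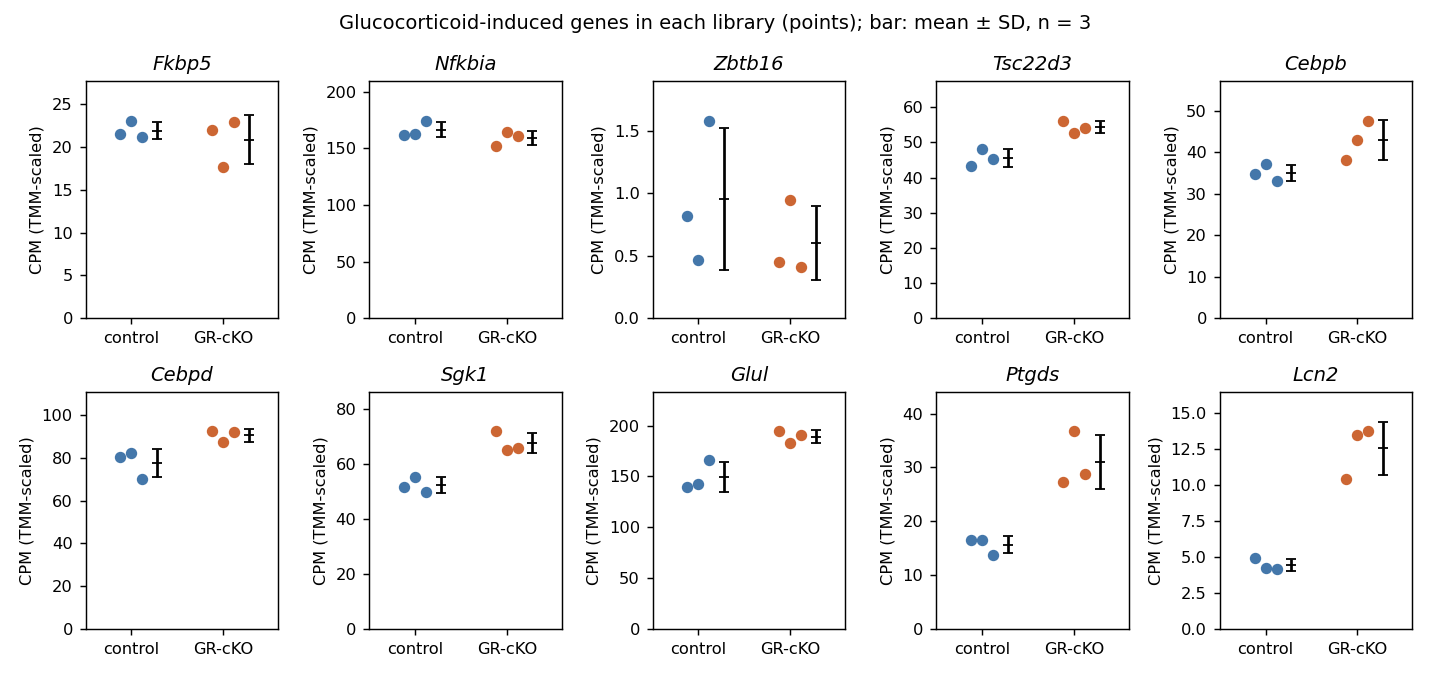
Level of each of the 10 genes in CPM (y axis, from 0, one scale per gene) in the 3 control (blue) and 3 GR-cKO (orange) libraries, with the mean and SD beside the points. Lcn2, Ptgds, Glul and Sgk1 are higher in all 3 GR-cKO libraries, and the groups overlap for Fkbp5, Nfkbia and Zbtb16.

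Nr3c1 itself fell. Its level was 68.2, 73.9 and 72.4 CPM in control and at 46.2, 42.8 and 44.1 CPM in GR-cKO (adjusted p = 3.3e-06, edgeR). The fold change was 0.621, with a 95% interval of 0.548 to 0.704. The receptor transcript thus went the way of the labels, and most of it remained in every GR-cKO library. Only 3' ends were read and the deleted exon is not known here, so the remaining tags do not measure functional receptor. Gene counts summed to 19371508 to 22583596 per library, and 3 counts, the floor that a count of 0 allows, equalled 0.133 to 0.155 CPM. All 12 cardiomyocyte markers were tested, of which 9 rose and 1 fell, 83.3% called against 14.8% of all tested genes. Their summed level was 43528 to 44705 CPM in control and 53752 to 55101 CPM in GR-cKO. Nppa and Actc1 supplied most of this rise, at means of 13621 and 6343 CPM in control and 18229 and 9800 CPM in GR-cKO. Myl7 fell to 0.609-fold, and Tnni3 and Myh7 were not called. In bulk libraries like these, a change in the number of cells of a type and a change in RNA per cell cannot be told apart.

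The libraries also differed in sex-linked RNA, which touches all comparisons between the groups. Xist, expressed from the inactive X chromosome of females, was at 293, 271 and 272 CPM in control and at 0, 0.0996 and 0 CPM in GR-cKO. The Y-linked gene Ddx3y was at 18.3 to 21.3 CPM in control and 86.4 to 94.7 CPM in GR-cKO. The controls thus held both Xist and Y-linked RNA and the GR-cKO libraries almost no Xist, and sex and genotype cannot be told apart here. Among the 10 genes only Tsc22d3 is on chromosome X. Of 469 tested X-linked genes other than Xist and Tsix, 4.69% were higher and 9.17% lower in GR-cKO, with a median log2 fold change of -0.08, against -0.0045 over 13873 autosomal genes. The upper quartile was 0.13 for these X-linked genes and 0.20 for the autosomal genes. Tsc22d3, at 0.26, did not pass the test, and the part of sex in its value was not tested.

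Promoters of 3 genes are shown because each holds a match to a motif of the receptor or of NF-κB. Whether these factors act on the differences was not tested. RefSeq start sites on GRCm38.p6 gave 15 windows of 300 bases, 250 before the start site and 50 after it, for 8 of the 10 genes. Both strands were searched for the half-site of the receptor, AGAACA, and for its full palindrome, in which AGAACA is followed after any 3 bases by TGTTCT and which therefore holds a half-site on either strand. They were also searched for an NF-κB motif, GGGA followed after any 2 bases by TTCC, and for a palindromic C/EBP motif, TTGCGCAA. Capitals mark every match. The first is an Sgk1 start (chr10:21993640-21993939, plus strand), with the full palindrome 189 bases before the start site and a further half-site at 242 bases. The second is a Tsc22d3 start (chrX:140600473-140600772, minus strand), with a half-site 185 bases before it. The third is Nfkbia (chr12:55492598-55492897, minus strand), with an NF-κB match 29 bases before the start site.
Sgk1: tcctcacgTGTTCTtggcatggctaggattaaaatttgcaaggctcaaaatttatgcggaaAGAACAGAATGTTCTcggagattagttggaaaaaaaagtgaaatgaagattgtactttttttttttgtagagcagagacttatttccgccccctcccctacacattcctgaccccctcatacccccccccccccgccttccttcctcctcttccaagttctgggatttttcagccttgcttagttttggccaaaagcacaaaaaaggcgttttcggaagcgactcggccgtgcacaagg
Tsc22d3: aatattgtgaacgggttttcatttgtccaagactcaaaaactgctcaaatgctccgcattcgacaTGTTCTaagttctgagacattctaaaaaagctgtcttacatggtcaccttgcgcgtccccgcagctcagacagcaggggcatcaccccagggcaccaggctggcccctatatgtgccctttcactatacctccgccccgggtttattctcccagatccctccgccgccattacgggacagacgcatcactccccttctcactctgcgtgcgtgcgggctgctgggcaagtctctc
Nfkbia: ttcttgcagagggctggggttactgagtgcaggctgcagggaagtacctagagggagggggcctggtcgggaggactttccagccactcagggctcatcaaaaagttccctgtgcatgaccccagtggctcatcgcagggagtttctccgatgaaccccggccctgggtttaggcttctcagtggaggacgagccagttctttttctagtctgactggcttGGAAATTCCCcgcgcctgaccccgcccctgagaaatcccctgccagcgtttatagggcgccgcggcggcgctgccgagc

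The full palindrome was rare. It occurred in 3 of 32851 promoter windows in the RefSeq table, or 0.00913%, and the Sgk1 window was one of them. The half-site was common, at 19% of all windows, and it occurred in 4 of the 15 windows here, 3 of Sgk1 and 1 of Tsc22d3. The NF-κB letters occurred in 1.47% of all windows and the C/EBP letters in 0.183%, the latter in none of the 15. These matches are descriptions of the sequence. Only the exact letters were searched, so elements that differ from them by a base were not found. Elements outside these windows were not examined, and binding was not measured.

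Among the genes that act on the receptor or on its kinase outputs, Fkbp5 did not pass the test and Sgk1 rose. FKBP5 (Fkbp5, ENSMUSG00000024222, GRCm38 chromosome 17, 28399094 to 28517527, minus strand) is an immunophilin co-chaperone of HSP90 and a standard readout of receptor activity. It was at 21.6, 23.1 and 21.1 CPM in control and at 22, 17.7 and 23.0 CPM in GR-cKO. The groups overlapped, with the lowest value in GR-cKO replicate 2. The means were 21.9 ± 1.03 and 20.9 ± 2.82 CPM (SD, n = 3 each), and the log2 fold change was -0.07 with a 95% interval of -0.34 to 0.20 (adjusted p = 0.802, edgeR). A decrease of more than 21.0% thus lay outside the interval. The control libraries varied by 4.69% (coefficient of variation), close to the 4.68% that counting alone gives at this depth, while the GR-cKO libraries varied by 13.5%.

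Sgk1 (ENSMUSG00000019970, chromosome 10, 21882184 to 21999903, plus strand) encodes a serum- and glucocorticoid-regulated kinase that controls ion channels and transporters. Its values were 51.7, 55.4 and 49.98 CPM in control and 71.9, 65.1 and 65.8 CPM in GR-cKO. Every GR-cKO library exceeded every control. Its log2 fold change was 0.37 ± 0.09 (SE), with a 95% interval of 0.19 to 0.55 (adjusted p = 0.00472, edgeR). The palindrome shown above lies in 1 of 6 Sgk1 windows in the RefSeq table, and 3' tags do not tell which start site was used.

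Of 10 tested relatives and partners of SGK1 and GILZ, 1 rose (10%, against 14.8% of all tested genes called) and none fell. Their median log2 fold change was -0.02. The riser was Ndrg1, which SGK1 phosphorylates and which is also known to be induced by hypoxia. It was at 29.2, 25.5 and 27.5 CPM in control and at 113, 104 and 84.5 CPM in GR-cKO (log2 fold change 1.88 ± 0.10, adjusted p = 4.91e-12). The upstream kinase gene Pdpk1 and the ubiquitin ligase gene Nedd4l, a target of SGK1, did not pass. Of 24 tested genes for the receptor, its chaperones and its cofactors, Nr3c1 alone passed (4.17% called), and it fell. The list's median log2 fold change was -0.04. FKBP4, the co-chaperone that opposes FKBP5, was at 154.9 ± 7.04 and 142 ± 14.1 CPM (adjusted p = 0.327). Hsd11b2, which inactivates glucocorticoids, had no count in any library, and Nr3c2, the mineralocorticoid receptor that also binds them, was at 0.144 to 1.38 CPM.

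The anti-inflammatory targets Tsc22d3 and Nfkbia did not pass the test, and their values differed in kind. Tsc22d3 (ENSMUSG00000031431, chromosome X, 140539528 to 140600659, minus strand) encodes GILZ, a leucine zipper protein that binds NF-κB and AP-1. It was at 43.2, 48.2 and 45.1 CPM in control and at 56.2, 52.7 and 54.1 CPM in GR-cKO, so the groups did not overlap. A log2 fold change of 0.26 ± 0.09 was fitted, with an interval of 0.07 to 0.44 (adjusted p = 0.0625, edgeR). DESeq2 placed it just under the threshold (adjusted p = 0.0414), and over the 13 alternatives run the adjusted p ran from 0.0382 to 0.19.

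Nfkbia (ENSMUSG00000021025, chromosome 12, 55489410 to 55492647, minus strand) encodes IκBα, which holds NF-κB in the cytoplasm and is itself an NF-κB target. It had the highest level of the 10 genes in control, at 162, 163 and 175 CPM, and was at 152, 164 and 161 CPM in GR-cKO. The groups overlapped, and the log2 fold change was -0.06 ± 0.07, with an interval of -0.21 to 0.08 (adjusted p = 0.636). A decrease of more than 13.5% lay outside this interval, the tightest of the 10.

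Other genes of the NF-κB pathway moved in both directions. Of 13 tested NF-κB subunits, inhibitors and kinases 3 rose and none fell, with a median log2 fold change of 0.12. The share called was 23.1%, against 14.8% of all tested genes. Bcl3, a nuclear IκB protein, was at 6.48 ± 2.02 and 13.3 ± 0.968 CPM (adjusted p = 0.000699), the subunit gene Rela rose 1.22-fold, and the subunit gene Relb went from 31.4 ± 1.97 to 39.2 ± 1.09 CPM. Without GR-cKO replicate 1 only 1 of these 13 was called, while calls over all tested genes went from 2132 to 1615. Of 11 tested inflammatory genes that NF-κB or AP-1 drive and glucocorticoids commonly repress, 1 rose and 3 fell (36.4% called). Their median was -0.21. Csf1, a growth factor for macrophages, was at 253 ± 8.79 and 179.6 ± 5.32 CPM, the adhesion molecule gene Icam1 at 41.0 ± 3.0 and 32.0 ± 2.86 CPM and the chemokine gene Cxcl1 at 9.09 ± 2.21 and 5.54 ± 0.207 CPM. The metalloproteinase gene Mmp3 rose 2.18-fold, to 4.28 CPM. The balance depended on the scaling: with ERCC spike-in factors 2 of the 11 were higher and 1 lower. Over all tested genes 1355 were higher and 522 lower with these factors. Of the 11 inflammatory genes 4 were called, but 2 without GR-cKO replicate 2 and 1 without GR-cKO replicate 3, all of them lower. Calls over all tested genes were 2132 with all libraries, 1572 without GR-cKO replicate 2 and 1879 without GR-cKO replicate 3. Il6 overlapped between the groups, and Il1b and Csf2 had no count in any library.

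The transcription factor genes of the set did not pass. Cebpb (ENSMUSG00000056501, chromosome 2, 167688915 to 167690418, plus strand) and Cebpd (ENSMUSG00000071637, chromosome 16, 15887286 to 15891031, plus strand) encode C/EBPβ and C/EBPδ, leucine zipper factors of metabolic and acute-phase transcription. Cebpb was at 34.7, 37.1 and 33.2 CPM in control and at 38.1, 43.1 and 47.7 CPM in GR-cKO. Its groups did not overlap, although GR-cKO replicate 1 lay close to the highest control. Its log2 fold change was 0.29 ± 0.10 (adjusted p = 0.0626, edgeR), and without GR-cKO replicate 1 it was 0.38 and passed (adjusted p = 0.0323). Cebpd was at 80.4, 82.1 and 70.3 CPM in control and at 92.4, 87.2 and 91.9 CPM in GR-cKO. Again the groups did not overlap, and the log2 fold change was 0.22 ± 0.08 (adjusted p = 0.0757, edgeR). Both genes overlap a gene on the other strand, Cebpb sharing 312 exonic bases with Tmem189 and Cebpd 562 with Spidr, and the strand setting of the counting is not given in the sources used here.

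Of 4 other tested C/EBP genes only Ddit3 passed (25%, against 14.8% of all tested genes called). It encodes CHOP, a C/EBP partner induced by the integrated stress response, and was at 39.3, 35.8 and 34.97 CPM in control and at 54.8, 64.9 and 44.9 CPM in GR-cKO (log2 fold change 0.58 ± 0.11, adjusted p = 0.000703). Cebpa was scarce, at 1.55 to 2.45 and 2.27 to 3.52 CPM, and Cebpg and Cebpz, at 0.985-fold and 1.04-fold, overlapped between the groups.

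Zbtb16 (ENSMUSG00000066687, chromosome 9, 48654297 to 48836222, minus strand) encodes PLZF, a zinc finger repressor whose induction is among the sharpest glucocorticoid responses in many cells. It was scarce in both groups, with 17, 10 and 32 counts in control and 10, 19 and 8 in GR-cKO. These correspond to 0.815, 0.469 and 1.58 CPM and to 0.452, 0.946 and 0.412 CPM, all above the floor. The groups overlapped. Its log2 fold change was -0.66 ± 0.65 with an interval of -2.00 to 0.69 (adjusted p = 0.594, edgeR), so at this depth values from 74.9% lower to 60.8% higher lay within the interval. The value was -0.09 without control replicate 3 and -1.13 without GR-cKO replicate 2. The libraries varied by 59.6% in control and 49.3% in GR-cKO, against 22.5% and 28.5% from counting alone.

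The 2 lipocalins of the set showed the largest differences. Lipocalins are small secreted proteins that carry lipophilic molecules. Lcn2 (ENSMUSG00000026822, chromosome 2, 32384633 to 32388252, minus strand) encodes lipocalin 2, which binds bacterial siderophores and rises in inflammation and cardiac stress. It was at 4.94, 4.22 and 4.15 CPM in control and at 10.4, 13.4 and 13.7 CPM in GR-cKO. The groups lay far apart, and the control libraries varied by 9.87%, no more than the 10.4% that counting alone gives. Its log2 fold change was 1.49 ± 0.20, with an interval of 1.08 to 1.91 (adjusted p = 6.53e-06, edgeR), and it was 1.43 to 1.62 with any 1 library left out.

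Ptgds (ENSMUSG00000015090, chromosome 2, 25466709 to 25470046, minus strand) encodes lipocalin-type prostaglandin D synthase, which makes prostaglandin D from its precursor. It was at 16.6, 16.5 and 13.8 CPM in control and at 27.3, 36.7 and 28.8 CPM in GR-cKO. All GR-cKO libraries were well above all controls, and GR-cKO replicate 2 was the highest. The log2 fold change was 0.99 ± 0.14, with an interval of 0.71 to 1.27 (adjusted p = 9.46e-06, edgeR). The promoter windows of Ptgds and Lcn2 held no exact match to any of the 4 motifs, and near matches were not searched.

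**Figure D2:**
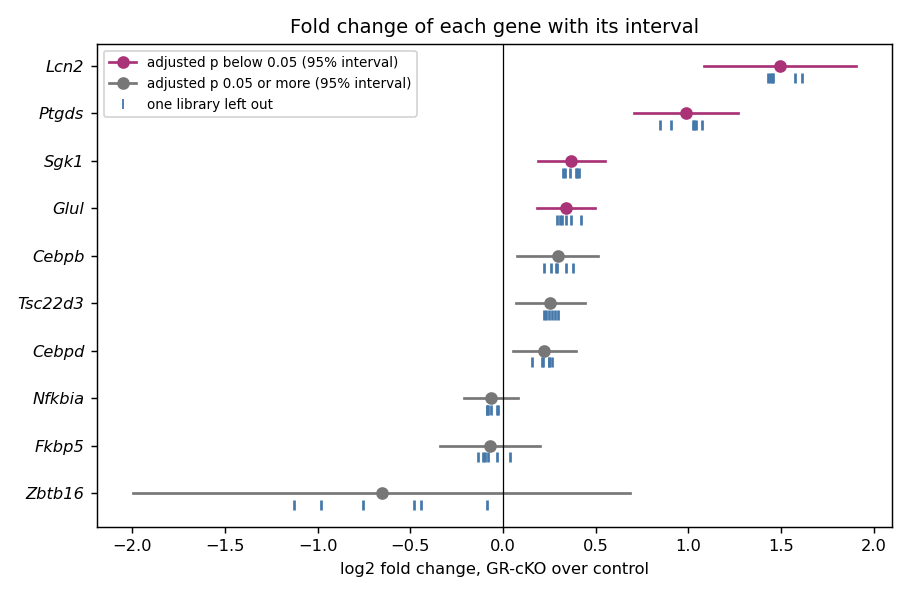
Log2 fold change of GR-cKO over control (x axis) for each gene, with its 95% interval; purple marks an adjusted p below 0.05, and the short blue ticks under each line give the values with 1 library left out. The 4 purple genes are Lcn2, Ptgds, Sgk1 and Glul, and the interval of Zbtb16 is the widest.

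Of 9 other tested genes of the prostaglandin pathway and of lipocalin receptors none rose and 1 fell, a share of 11.1% called against 14.8% of all tested genes, and the median log2 fold change was -0.06. Slco2a1, a prostaglandin transporter, fell from 73.5 ± 1.41 to 51.2 ± 2.25 CPM (adjusted p = 7.96e-05, edgeR). Ptgs2, which encodes the inducible cyclooxygenase and is also among the 11 inflammatory genes above, was at 5.13, 8.15 and 5.33 CPM in control and at 7.73, 10.4 and 10.6 CPM in GR-cKO, and missed the threshold (log2 fold change 0.62 ± 0.22, adjusted p = 0.0603, edgeR). Besides the 1 that fell, 1 of the 9 was called higher with ERCC scaling, without a low-count filter, with the replicate block, without control replicate 2 and without GR-cKO replicate 1. The gene for the hematopoietic prostaglandin D synthase, Hpgds, and those of the prostaglandin D receptors, Ptgdr and Ptgdr2, were too scarce to test. The Lcn2 receptor gene Slc22a17 was not called.

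Acute-phase genes moved beside Lcn2. Of 13 tested genes of the acute phase and the interleukin-6 response 7 rose and none fell, with a median log2 fold change of 0.72. These calls made up 53.8% of the list, against 14.8% of all tested genes. Socs3, the feedback inhibitor of this pathway, was at 5.18, 4.55 and 4.89 CPM in control and at 11.9, 10.8 and 14.7 CPM in GR-cKO (log2 fold change 1.35 ± 0.20, adjusted p = 1.92e-05). The protease inhibitor gene Serpina3n rose 2.18-fold, Cp, which encodes the copper carrier ceruloplasmin, 1.65-fold and the X-linked protease inhibitor gene Timp1 1.53-fold. Their part in the Lcn2 result was not tested.

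Neutrophils store lipocalin 2 in their granules, and neutrophil RNA also differed between libraries. Of 7 listed neutrophil markers 5 were tested, 4 of these rose and none fell, and Elane and Ly6g were too scarce, with Ly6g at 0 in all controls. Their summed level was 89.2, 67.1 and 37.2 CPM in control and 81.1, 227 and 212 CPM in GR-cKO. In the same order of libraries Lcn2 was at 4.94, 4.22 and 4.15 CPM in control and at 10.4, 13.4 and 13.7 CPM in GR-cKO. Of 10 macrophage and lymphocyte markers 5 were tested, of which 3 rose and none fell, with sums of 13.4 to 18.3 and 36.5 to 56.3 CPM (36.5 in GR-cKO replicate 1), and the lymphocyte markers Cd3e and Cd79a had no count in any library. The share called was 80% of the tested neutrophil markers and 60% of the tested macrophage and lymphocyte markers, against 14.8% of all tested genes. The part of leukocyte RNA in the Lcn2 result was not tested.

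**Figure D3:**
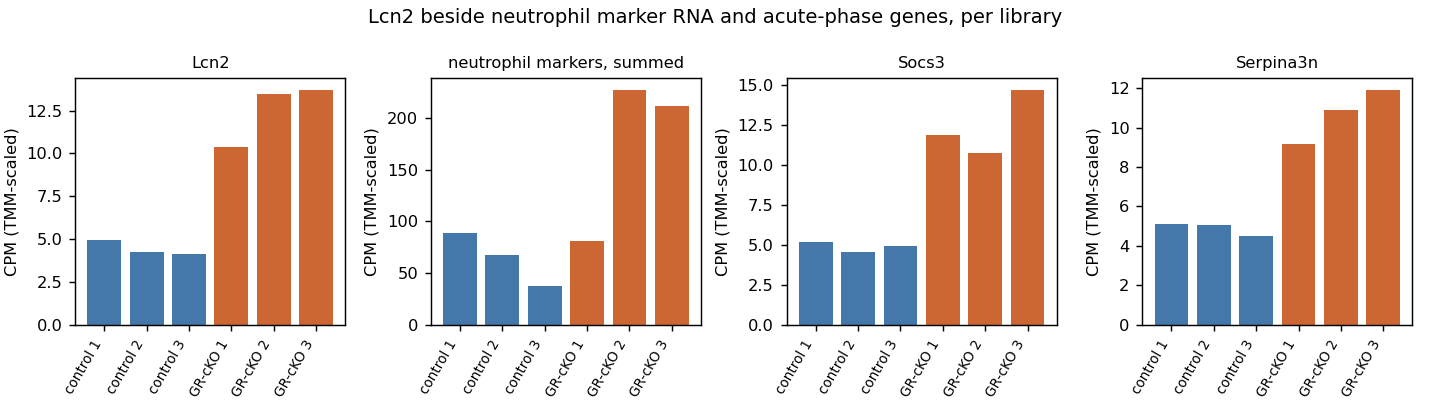
Level in CPM (y axis, from 0) in each control (blue) and GR-cKO (orange) library of Lcn2, of the summed neutrophil markers, and of the acute-phase genes Socs3 and Serpina3n. Lcn2, Socs3 and Serpina3n are higher in all 3 GR-cKO libraries than in any control, and the neutrophil sums of the groups overlap, at 37.2 to 89.2 and 81.1 to 227 CPM.

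Markers of other heart cells moved as well, where the share called over all tested genes was 14.8%. Fibroblast markers summed to 3642 to 3851 CPM in control and 4766 to 4891 CPM in GR-cKO, with 5 of 9 higher and 1 lower. Endothelial markers summed to 1033 to 1072 and 1292 to 1380 CPM, with 7 of 9 higher and 1 lower, and those of smooth muscle cells and pericytes to 3725 to 3837 and 4413 to 4636 CPM, with 5 of 8 higher and none lower. No marker of these 3 lists was at 0 in all libraries. Fibroblast markers ran from 0.776-fold (Dcn) to 2.49-fold (Postn) and endothelial markers from 0.643-fold (Emcn) to 5.26-fold (Fabp4). Smooth muscle and pericyte markers ran from 0.660-fold (Myh11, not called) to 2.51-fold (Cnn1). Epicardial markers summed to 95.9 to 100.8 and 92.5 to 108.9 CPM, with 2 of 6 higher and 2 lower. The part of these cells in the differences of the 10 genes was not tested.

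Glul (ENSMUSG00000026473, chromosome 1, 153899944 to 153909723, plus strand) encodes glutamine synthetase, which joins ammonia to glutamate. It was at 139.8, 143 and 166 CPM in control and at 194, 182 and 190.4 CPM in GR-cKO. The groups did not overlap, with control replicate 3 the closest to GR-cKO. The log2 fold change was 0.34 ± 0.08, with an interval of 0.18 to 0.49 (adjusted p = 0.00262, edgeR). Counting alone would give a variation of 1.79% among controls, where 9.67% was measured. In GR-cKO Glul stood above Nfkbia as the gene with the highest level of the 10, at 189 ± 6.11 against 159 ± 6.12 CPM, while in control the 2 genes overlapped. A processed pseudogene of glutamine synthetase, Glns-ps1, had no count in any library.

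Of 14 other tested genes of glutamine and glutamate handling 5 rose and none fell, with a median log2 fold change of 0.12. That is 35.7% called, against 14.8% of all tested genes. The glutamine transporter gene Slc38a2 was at 556, 567 and 560.3 CPM in control and at 947, 837 and 890.2 CPM in GR-cKO (adjusted p = 2.97e-08, edgeR). Asns, which uses glutamine to make asparagine, rose 1.44-fold, the glutamate transporter gene Slc1a3 1.55-fold and the transaminase gene Gpt2 1.52-fold. Slc38a2 and Asns are also known targets of the integrated stress response. Only 3 of the 14 were called, all higher, when replicate 1 of either group or replicate 2 of the control was left out. With GR-cKO replicate 3 left out, 2 were called higher and 1 lower. Calls over all tested genes were 1572 to 1879 with any 1 library left out, against 2132 with all libraries.

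Other genes that glucocorticoids induce were mixed. Of 32 listed genes 26 were tested, 13 rose, 3 fell and 10 did not pass, with a median log2 fold change of 0.42. Called genes made up 61.5% of those tested, against 14.8% of all tested genes. The metallothionein genes Mt1 and Mt2, which bind zinc and copper, rose 4.94-fold and 7.03-fold, and the cell cycle inhibitor gene Cdkn1a 1.44-fold. Anxa1, an anti-inflammatory annexin, fell from 193 ± 8.3 to 119.9 ± 18.7 CPM, the cell cycle inhibitor gene Cdkn1c fell by 0.77 on the log2 scale, and the secreted protein gene Crispld2 from 9.04 ± 1.36 to 5.39 ± 0.932 CPM. The other 10 that rose were Per1, Klf9, Dusp1, Zfp36, Errfi1, Angptl4, Ddit4, Foxo3, Bcl6 and Irs2, with log2 fold changes from 0.32 (Klf9) to 1.15 (Angptl4). The 10 that did not pass were Klf15, Pdk4, Foxo1, Fbxo32, Trim63, Hif3a, Arrdc2, Rhob, Lpin1 and Mertk, with values from -0.34 (Pdk4) to 0.69 (Arrdc2). The liver genes Tat, Pck1 and G6pc and the macrophage gene Cd163 had no count in any library. Fam107a and Sult1a1 were too scarce to test. Fam107a had 2, 4 and 2 counts in control and 0, 0 and 0 in GR-cKO, and Sult1a1 7, 11 and 4 against 2, 6 and 0.

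**Figure D4:**
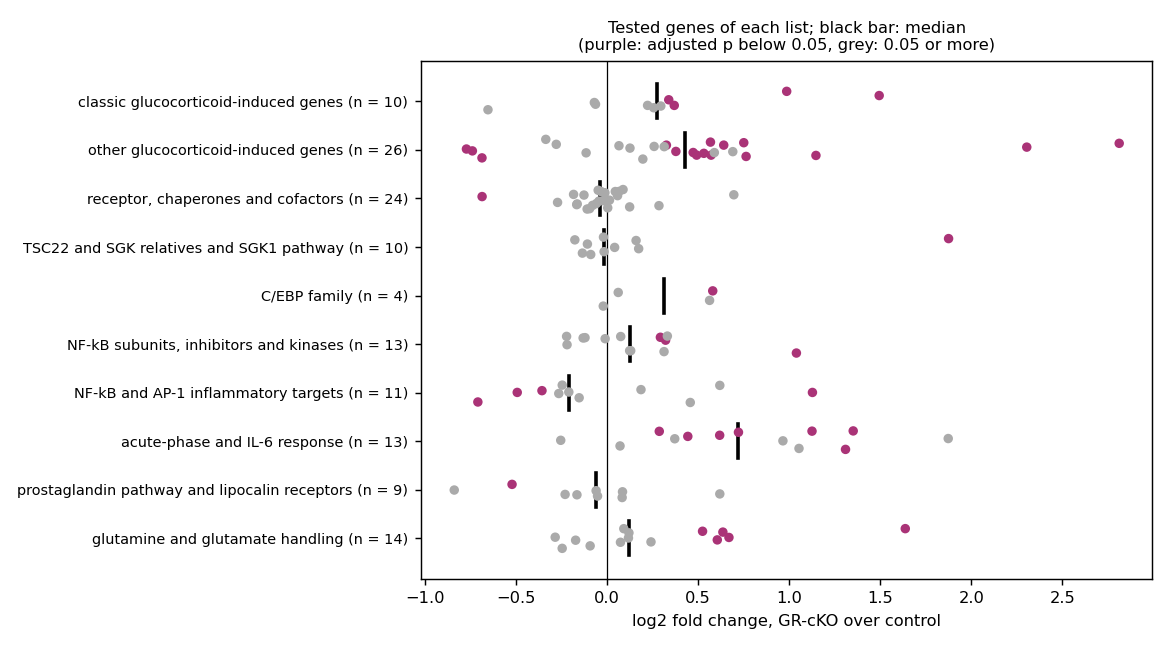
Log2 fold change of GR-cKO over control (x axis) for each tested gene of 10 lists (y axis); purple points have an adjusted p below 0.05, grey points do not, and black bars are medians. The 10 genes have a median of 0.27, between those of the receptor and cofactor list (-0.04) and of the acute-phase list (0.72).

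By level in control, from 3' tags and without scaling to length, the order was Nfkbia, Glul, Cebpd, Sgk1, Tsc22d3, Cebpb, Fkbp5, Ptgds, Lcn2 and Zbtb16. Only the first 2 overlapped in their control libraries, at 162 to 175 and 139.8 to 166 CPM. Together the 10 genes made up 556 to 580.1 CPM in control and 663 to 677 CPM in GR-cKO. Glul supplied 39.5 CPM of the difference, more than any other of the genes, and Ptgds and Sgk1 15.3 and 15.2 CPM.

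The calls of Lcn2, Ptgds, Sgk1 and Glul held in each of the 14 alternatives run, as the plot of settings shows. When libraries were scaled by the ERCC spike-ins, which moved the median of all tested genes from -0.01 to 0.09, 7 of the 10 genes were called higher, the additions being Tsc22d3, Cebpb and Cebpd. Over the 14386 tested genes that scaling called 1355 higher and 522 lower, against 1097 and 1035 with TMM factors. With that scaling Fkbp5 and Nfkbia had log2 fold changes of 0.027 and 0.025 and still did not pass. No setting called any of the 10 genes lower.

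**Figure D5:**
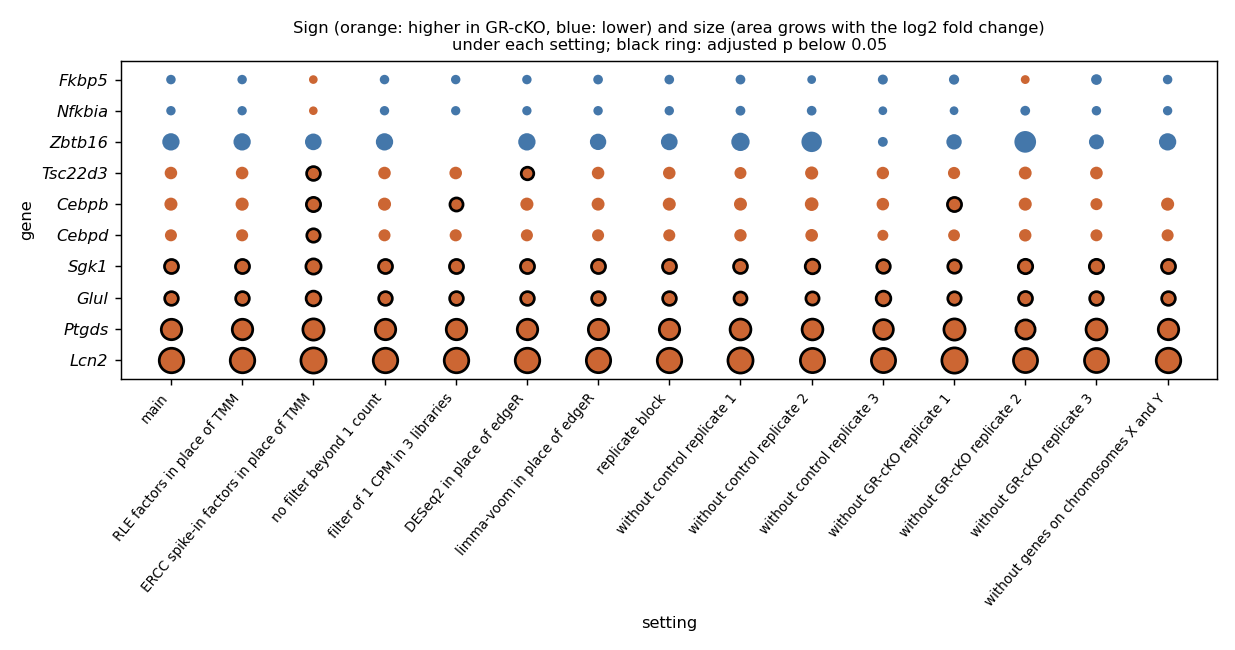
Sign and size of the log2 fold change of each gene (y axis) under each setting (x axis); orange is higher and blue lower in GR-cKO, the area grows with the size, and a black ring marks an adjusted p below 0.05. Lcn2, Ptgds, Glul and Sgk1 are ringed in every column, and Tsc22d3, Cebpb and Cebpd in some.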

How the data were processed

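The authors deposited raw counts per gene, 1 table per library, without normalization. Per the labels' protocols, libraries were made from 100 ng of total RNA with a QuantSeq 3' mRNA forward kit. Per the submitters' processing notes, the genome build was GRCm38 and the tools named include featureCounts 1.6.2 and STAR 2.5.4a, beside cutadapt 1.16 and DESeq2 1.18.1. Of 52649 rows 52550 were Ensembl genes and the rest ERCC and SIRV spike-ins, 1.98% to 2.36% of counts, which stayed out of library sizes and tests. Symbols and coordinates came from GENCODE M21 (GRCm38), which matched 52403 genes.

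GR-cKO was compared with control by edgeR 4.0.16 (quasi-likelihood, TMM factors of 0.980 to 1.024, default low-count filter, Benjamini-Hochberg over 14386 genes, threshold 0.05) in R 4.3.3. Standard errors and 95% intervals were derived from each gene's F statistic. The script was tested on simulated data. Libraries of a group differed by more than counting noise, so all 6 were kept. The alternatives included DESeq2 1.42.0 and limma 3.58.1 (voom). The floor of 3 counts and the counting variation cover counting error only.

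The 10 genes and the lists were chosen with earlier results of these data known. Named genes were all 10, Nr3c1 and, per list, up to 4 called members with the smallest p. Pdpk1, Nedd4l, Fkbp4, Hsd11b2, Nr3c2, Il6, Il1b, Csf2, Cebpa, Cebpg, Cebpz, Hpgds, Ptgdr, Ptgdr2, Slc22a17, Ptgs2, Elane, Ly6g, Cd3e, Cd79a and all other glucocorticoid-induced genes beyond Mt1, Mt2, Anxa1 and Cdkn1a were named after their values were seen. The markers Nppa, Actc1, Myl7, Tnni3, Myh7, Dcn, Postn, Emcn, Fabp4, Myh11, Cnn1, Lyz2, Cd68 and Csf1r were likewise named after their values were seen. The NF-κB and C/EBP motifs were also added later.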

Additional observations from a re-analysis of the deposited data

How the results depend on the processing

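With ERCC spike-in factors 7 of the 10 genes were called (Tsc22d3 0.35, Cebpb 0.39 and Cebpd 0.32 passed), Fkbp5 turned to 0.027 and Nfkbia to 0.025, and 2 SGK1 relatives and 2 prostaglandin genes were called; the split over all genes moved from 1097 higher and 1035 lower to 1355 and 522. Cebpb passed with a filter of 1 CPM in 3 libraries (0.30), which left out Zbtb16, and Tsc22d3 with DESeq2 (0.26). DESeq2 and limma-voom called 2 SGK1 relatives each. Without a low-count filter and with the replicate block 2 prostaglandin genes were called. With 1 library left out, Fkbp5 ranged from -0.14 to 0.037 (turning without GR-cKO replicate 2), Cebpb from 0.22 to 0.38, called glutamine genes from 3 to 4 (5 with all libraries), inflammatory targets from 1 to 4, NF-κB genes from 1 to 3, prostaglandin genes from 1 to 2 (2 without control replicate 2 or GR-cKO replicate 1), receptor and cofactor genes from 1 to 2 (2 without control replicate 3 or GR-cKO replicate 1), and SGK1 relatives from 1 to 2 (2 without control replicate 1). Calls over all tested genes ranged from 1572 to 1879 with 1 library left out, against 2132 with all libraries. The cause of these shifts was not tested. Of 292 values under alternatives 264 kept their direction and side (fold changes) or a similar total (list counts, whose split by direction can still turn). Deviations of same-numbered libraries correlated weakly, at 0.0021, 6.5e-05 and 0.075, and control replicate 1 correlated best with GR-cKO replicate 2 (0.125). With 3 libraries per group, such values cannot decide whether the numbers pair the libraries. The replicate block called 2353 genes against 2132 and 4 of the 10, as without it. Without chromosomes X and Y, where Tsc22d3 could not be fitted, 4 were called. Depth adds most counting error to Zbtb16, at 22.5% in control and 28.5% in GR-cKO.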
